A study of Mus musculus with 7 samples.

Results

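The hypoxia-inducible factor (HIF) pathway was followed through 10 genes in bulk RNA sequencing of muscle endothelial cells. The genes were chosen by symbol, with earlier results of these data known. They were the HIF alpha subunits Hif1a and Epas1, the oxygen sensors Egln1 and Egln3, and the HIF-responsive genes Ankrd37, Ak4, Bnip3, Bnip3l, Ndrg1 and Adm. All 10 were among the 30899 genes of the tables, and all 10 passed the filter on low values (a mean normalised count of at least 10 over the 7 libraries), as did 16931 genes in all. The 4 libraries labelled mECDglut1 came from mice described as lacking GLUT1 in the endothelium (genotype given as knockout), and the 3 libraries labelled mECwt came from wild-type mice. Cells of both groups were primary endothelial cells taken from skeletal muscle with beads, with RNA extracted at once and no treatment. The sources used here do not name the driver of the deletion, the deleted exons, or the strain, sex and age of the animals. Since no label ties a library to an animal of its own, p-values cover no more than the spread among these 7 libraries.

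HIF is a dimer of an oxygen-labile alpha subunit and the constant partner ARNT. In oxygen, the prolyl hydroxylases of the EGLN family modify the alpha subunit, the VHL ubiquitin ligase then binds it, and it is destroyed. When oxygen falls, the alpha subunit persists, enters the nucleus and binds a short DNA element at genes of glycolysis, vascular growth and mitochondrial turnover, among them EGLN genes themselves. Control thus lies largely at the level of protein stability, which RNA counts do not measure. Endothelial cells are known for high Epas1, and glucose carriers such as GLUT1 are textbook HIF targets.

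Slc2a1, the gene of GLUT1, was set against the labels. It had 952.6, 1435, 824 and 1087 normalised counts in the mECDglut1-labelled libraries 1 to 4, against 1032, 1083 and 1266 in the mECwt libraries 1 to 3. The groups overlapped, and the log2 fold change was -0.09 (SE 0.18, adjusted p = 0.738 in limma), with a 95% interval of -0.47 to 0.28. The labelled deletion was thus not seen in this gene's level. A count over the whole gene can include exons that a deletion leaves, and the deleted exons are not named. This level therefore cannot decide whether the deletion is present, and directions below rest on the labels alone. The libraries also differed in make-up. Reads per library were estimated at 11260176 to 14156876 in mECDglut1-labelled and 14736944 to 18020310 in mECwt libraries. Genes listed at 0 numbered 7301 to 9306 in mECDglut1-labelled and 2794 to 6551 in mECwt libraries, with mECwt library 1 the lowest. The nuclear RNA Malat1 took 0.22% to 0.471% of the total in mECDglut1-labelled and 0.904% to 2.01% in mECwt libraries. The mean log2 value of olfactory and vomeronasal receptor genes, which are not known as endothelial genes, was 1.36 to 1.73 in mECDglut1-labelled and 2.12 to 3.20 in mECwt libraries. How far these measures shape the differences below was not tested beyond the fits named with them.

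The DNA element bound by HIF has the core ACGTG, in which the leading base may also be G. Promoter windows of 300 bases, 250 before and 50 from the annotated start, matched 7 of the 10 members, all but Epas1, Bnip3l and Ndrg1. All 7 held at least 1 of these cores on either strand, as did 46.7% of the 27025 genes with a window. Windows are shown for the 3 members called higher and for Kdm3a, a textbook HIF target called lower. They come from RefSeq on GRCm38.p6, an older build than the GRCm39 named for the counts, and are written 5′ to 3′ on the gene's strand. Both spellings of the core were searched on both strands, capitals mark each match, and matches that overlap within the palindrome CACGTG counted as 1 site. The windows are Egln1 chr8:124949205-124949504 (- strand), Ankrd37 chr8:45999801-46000100 (- strand), Ak4 chr4:101419039-101419338 (+ strand) and Kdm3a chr6:71632868-71633167 (- strand). For Kdm3a the most upstream of 3 windows is shown.
Egln1: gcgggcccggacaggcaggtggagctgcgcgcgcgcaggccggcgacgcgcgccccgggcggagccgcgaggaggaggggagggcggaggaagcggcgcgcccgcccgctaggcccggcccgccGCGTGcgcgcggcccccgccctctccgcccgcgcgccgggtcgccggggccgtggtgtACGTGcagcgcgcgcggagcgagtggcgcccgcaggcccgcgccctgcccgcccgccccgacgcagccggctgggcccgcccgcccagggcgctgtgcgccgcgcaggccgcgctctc
Ankrd37: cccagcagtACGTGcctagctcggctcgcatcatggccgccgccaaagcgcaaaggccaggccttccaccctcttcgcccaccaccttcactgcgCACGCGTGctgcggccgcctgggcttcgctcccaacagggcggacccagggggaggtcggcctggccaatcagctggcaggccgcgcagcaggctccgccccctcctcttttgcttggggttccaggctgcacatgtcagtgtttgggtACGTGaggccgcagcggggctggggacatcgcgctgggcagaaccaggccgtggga
Ak4: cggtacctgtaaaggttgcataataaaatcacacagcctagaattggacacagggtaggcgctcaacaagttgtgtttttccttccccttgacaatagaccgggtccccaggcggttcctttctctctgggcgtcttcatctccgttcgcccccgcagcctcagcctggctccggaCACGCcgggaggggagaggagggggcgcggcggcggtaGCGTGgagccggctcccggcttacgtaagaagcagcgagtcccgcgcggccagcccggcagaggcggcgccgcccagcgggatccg
Kdm3a: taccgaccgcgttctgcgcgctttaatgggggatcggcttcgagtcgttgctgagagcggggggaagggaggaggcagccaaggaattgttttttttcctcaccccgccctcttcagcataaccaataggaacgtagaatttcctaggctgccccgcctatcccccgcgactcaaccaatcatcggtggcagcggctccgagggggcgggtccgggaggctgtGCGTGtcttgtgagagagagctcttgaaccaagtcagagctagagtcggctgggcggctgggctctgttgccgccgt
The Egln1 window held 2 cores, both on the gene's strand, from positions -126 and -68 relative to the start. Ankrd37 held 4, of which the pair from positions -155 and -152 overlap on opposite strands and print as 1 run, and the nearest to the start began at position -6. The Ak4 window, the most upstream of 4, held a core on the other strand from position -74 and another on the gene's strand from position -36. The Kdm3a window held 1. At least 2 such sites stood in 17.5% of all 32851 windows, and a match says nothing about binding. Among textbook HIF targets with a window, 8 of 9 called higher, 2 of 2 called lower and 27 of 32 not called held a core.

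The sensor gene Egln1 and the target genes Ankrd37 and Ak4 rose in the mECDglut1-labelled libraries (adjusted p under 0.05 in limma over all tested genes), 0 members fell, and 7 were not called. Of all tested genes 5.98% were called higher and 5.53% lower. The factors themselves, Hif1a and Epas1, were not called. All 10 estimates were above 0, as were 51.8% of all tested genes and 67.7% of the 9558 protein-coding genes averaging 100 or more. Those of Hif1a and Adm turned below 0 with equal totals (every library scaled to the same sum), a scaling that shifted the all-gene median by -0.22. The members' median log2 fold change was 0.47, against 0.02 over all tested genes and 0.16 over that protein-coding set, where 9.47% were called higher and 2.84% lower. In 8 of the 10, every mECDglut1-labelled library was above every mECwt library, which held for 14.7% of tested genes (28.8% were separated in either direction, 14.1% with mECDglut1 lower) and 22.1% of the protein-coding set. Over all genes the main fit called 1949. Without mECwt library 1, limma called 0 members, with 6 at an unadjusted p under 0.05, and 43 genes in all (3339 unadjusted). Without the mean-variance trend it called 0 members (7 unadjusted) and 17 genes in all (4926 unadjusted). With the receptor covariate, a term for the mean receptor level of each library, it called 0 members (1 unadjusted) and 0 genes in all (742 unadjusted). That level was separated between the groups, so this fit could hardly tell it from the group difference. Without mECDglut1 library 1 (608 genes in all) 2 members were called, Ankrd37 and Bnip3. Ankrd37 and Ak4 were called without mECDglut1 library 4 (652), and Egln1 and Ankrd37 without mECwt library 2 (1058). In bulk RNA, fewer cells of a type and less RNA per cell cannot be told apart.

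**Figure D1:**
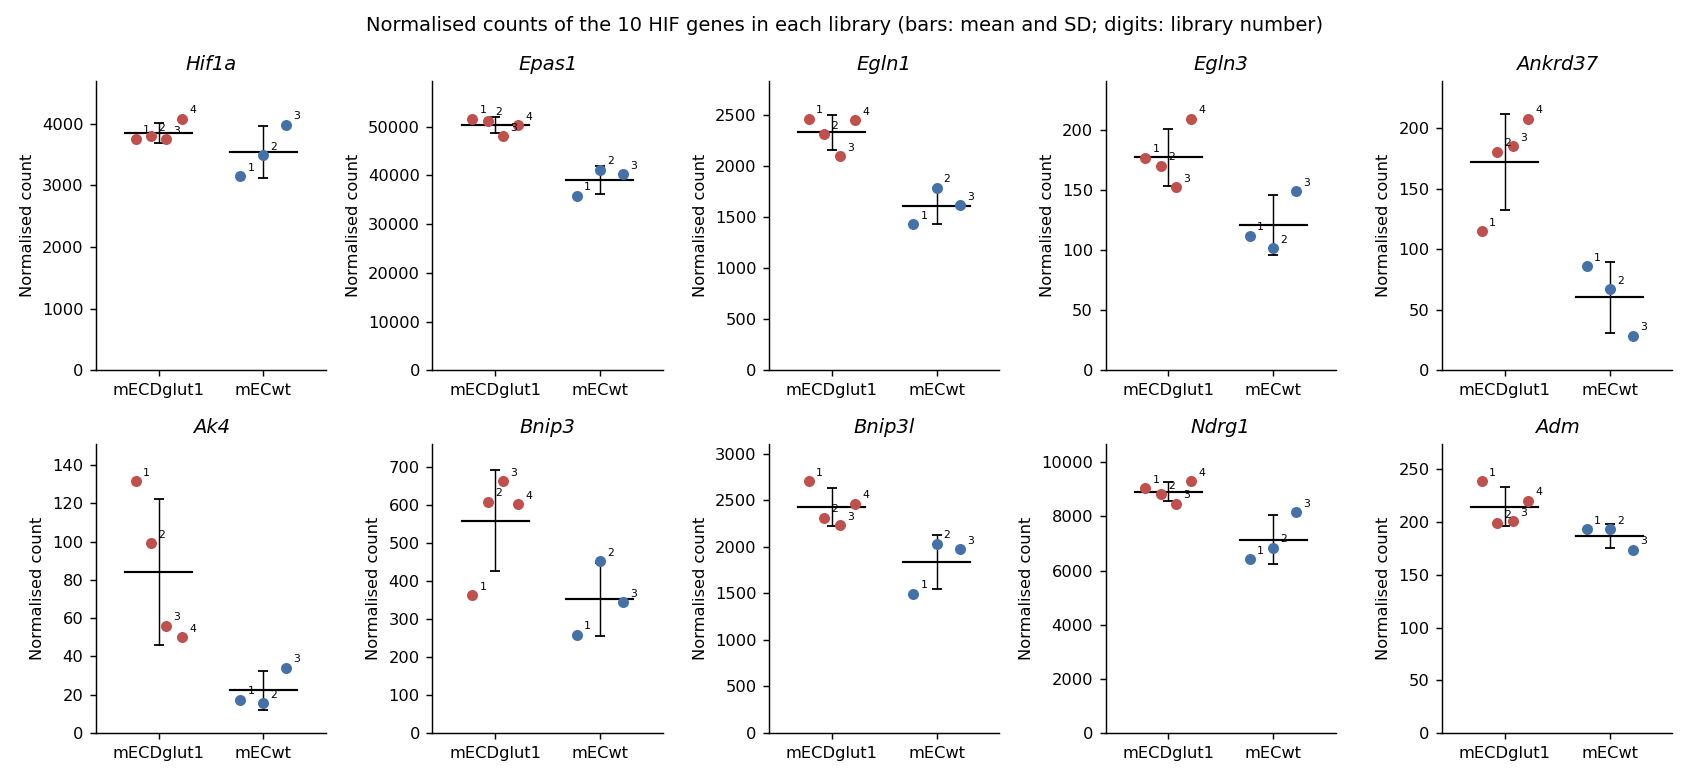
Normalised counts (vertical axes, from 0) of each HIF gene in the 4 mECDglut1-labelled libraries (left, red) and the 3 mECwt libraries (right, blue), with the mean and SD as black bars and library numbers beside the points. Hif1a and Bnip3 overlap between the groups, whereas the other 8 genes do not, some by a narrow gap such as 152.8 in the lowest mECDglut1-labelled against 149.3 in the highest mECwt library for Egln3.

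Epas1 encodes HIF-2 alpha and was the most abundant member per kilobase of exon. It had 51629, 51234, 48013 and 50331 normalised counts in mECDglut1-labelled libraries 1 to 4, against 35847, 41199.6 and 40279 in mECwt libraries 1 to 3. Every mECDglut1-labelled value was above every mECwt value, and the mECDglut1-labelled values lay close together. The means were 50302 ± 1619.9 in mECDglut1-labelled and 39109 ± 2862 in mECwt libraries (SD, n = 4 and 3). The log2 fold change of 0.37 (SE 0.13, interval 0.09 to 0.64) missed the threshold (adjusted p = 0.076). Robust limma put it past the threshold (adjusted p = 0.0454), with a range of 0.0454 to 0.996 over 19 alternatives. The 0.996 came from the receptor covariate, a fit in which 0 of all tested genes were called. Hif1a, which encodes HIF-1 alpha, had 3756, 3797, 3749 and 4078 normalised counts in mECDglut1-labelled libraries, against 3146, 3491 and 3984 in mECwt libraries. Its groups overlapped, since mECwt library 3 exceeded 3 of the 4 mECDglut1-labelled libraries. The log2 fold change was 0.12 (SE 0.12, 95% interval -0.13 to 0.38, adjusted p = 0.492), so a rise of over 0.38 on the log2 scale lies outside the interval. The sign of the Hif1a estimate turned with equal totals (-0.10), quantile normalization (-0.018) and the receptor covariate (-0.15). A gene on the opposite strand, Gm15283, shares exonic bases with Hif1a and had 2.98 to 14.3 normalised counts in mECDglut1-labelled libraries and 29.5 to 58.4 in mECwt libraries. It was called lower (log2 fold change -2.27, SE 0.59, adjusted p = 0.0295), at counts that are small beside those of Hif1a. The opposite-strand genes Gm17035 and Gm2895, which share exonic bases with Ndrg1, averaged 0.993 and 17.4 normalised counts over all libraries. Gm49321, on the same strand as Hif1a, and Gm45507, on the strand opposite Bnip3, also share exonic bases with these members. Neither had counts under that name. Genes that share bases with a member are named for that overlap.

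Egln1 encodes PHD2, the prolyl hydroxylase that does most of the marking of HIF alpha subunits in normal oxygen. It rose in the mECDglut1-labelled libraries, which had 2463, 2313, 2095 and 2451 normalised counts, against 1427, 1786 and 1616 in the mECwt libraries. The groups did not overlap, and the gap between the lowest mECDglut1-labelled and the highest mECwt library exceeded the SD of either group. The means were 2331 ± 171 in mECDglut1-labelled and 1609.9 ± 179 in mECwt libraries (SD, n = 4 and 3), a ratio of 1.45 and a fitted difference of 0.54 on the log2 scale (SE 0.13, 95% interval 0.26 to 0.81, adjusted p = 0.0239). The Egln1 call in limma was lost with equal totals (log2 fold change 0.31, adjusted p = 0.0744) and without mECwt library 1 (adjusted p = 0.107). It was also lost without mECDglut1 library 1 (adjusted p = 0.0652) or 4 (adjusted p = 0.0642). Over 19 alternatives adjusted p ranged from 0.0205 to 0.996. The 0.996 came from the receptor covariate, in which 0 of all tested genes were called. Egln3, which encodes PHD3, a sensor whose own gene HIF induces, had 177, 170.4, 153 and 209.7 normalised counts in mECDglut1-labelled libraries, against 112, 102 and 149 in mECwt libraries. Its groups were apart by only a few counts. The log2 fold change of Egln3 was as large as that of Egln1 but less certain, at 0.56 (SE 0.22, 95% interval 0.08 to 1.04, adjusted p = 0.107).

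Ankrd37, an ankyrin repeat gene known as a HIF-1 target, showed the second largest difference of the members. It had 115, 180.5, 185 and 208 normalised counts in mECDglut1-labelled libraries, against 86, 66.8 and 28.4 in mECwt libraries. No library of either group crossed into the range of the other, and mECDglut1-labelled library 1 and mECwt library 3 were the lowest of their groups. The means were 172 ± 40 in mECDglut1-labelled and 60.4 ± 29.3 in mECwt libraries (SD, n = 4 and 3), a ratio of 2.85 and a fitted difference of 1.60 on the log2 scale (SE 0.35, 95% interval 0.85 to 2.36, adjusted p = 0.0193). It ranked 64 of 16931 tested genes by log2 fold change. Ankrd37 shares exonic bases with 2 genes on the opposite strand, Ufsp2 and Lrp2bp, and the sources used here do not say whether counting kept strands separate. Ufsp2, which encodes a protease for the ubiquitin-like modifier UFM1, had 119, 175, 206 and 200.5 normalised counts in mECDglut1-labelled libraries, against 186, 158 and 142 in mECwt libraries. Its groups overlapped (log2 fold change 0.09, SE 0.24, adjusted p = 0.823), although in both groups its lowest library was also the lowest for Ankrd37. Lrp2bp had 9.96 to 57.6 normalised counts in mECDglut1-labelled and 16.7 to 41.4 in mECwt libraries, with a log2 fold change of -0.00 (SE 0.56).

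Ak4, a nucleotide kinase of the mitochondrial matrix, showed the largest difference of the members at the lowest level. Its normalised counts were 131, 99.2, 56.1 and 50.2 in mECDglut1-labelled libraries, against 17.3, 15.5 and 34.1 in mECwt libraries. The groups did not overlap, though the mECDglut1-labelled libraries fell into a higher pair, 1 and 2, and a lower pair, 3 and 4. The means were 84.2 ± 38.3 in mECDglut1-labelled and 22.3 ± 10.3 in mECwt libraries (SD, n = 4 and 3), a ratio of 3.78 and a fitted difference of 1.85 on the log2 scale (SE 0.43, 95% interval 0.93 to 2.76, adjusted p = 0.0218). Without mECDglut1 library 1 the Ak4 call was lost (log2 fold change 1.60, adjusted p = 0.0629), as it was without mECwt library 1 (adjusted p = 0.112) or 2 (adjusted p = 0.0517), with adjusted p from 0.0185 to 0.996 over 19 alternatives. The Ankrd37 call was lost without mECwt library 1 (adjusted p = 0.0611) and remained when any other library was left out. Its adjusted p in limma ran from 0.0161 to 0.996 over 19 alternatives. For Ak4 and Ankrd37 alike the 0.996 came from the receptor covariate, in which 0 of all tested genes were called. There Ak4 stood at 1.23 and Ankrd37 at 2.66 on the log2 scale. Ak4 and Ankrd37 did not follow each other from library to library. The mECDglut1-labelled library with the most Ak4, library 1, had the least Ankrd37, and mECwt library 3 had the most Ak4 and the least Ankrd37 of its group. The ratio of Ankrd37 to Ak4 normalised counts therefore ran from 0.872 to 4.14 in mECDglut1-labelled and from 0.833 to 4.97 in mECwt libraries.

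Bnip3 and Bnip3l encode receptors of the outer mitochondrial membrane that mark mitochondria for autophagy, and neither was called. Bnip3 had 363, 609, 663 and 603 normalised counts in mECDglut1-labelled libraries, against 259, 453 and 344 in mECwt libraries. As with Ankrd37, mECDglut1-labelled library 1 was the lowest of its group, and here it fell within the mECwt range. The log2 fold change was 0.67 (SE 0.23, 95% interval 0.17 to 1.16, adjusted p = 0.0717 in limma). Without that library it was 0.86 (adjusted p = 0.044, the lowest of a range up to 0.996 over 19 alternatives). The 0.996 came from the receptor covariate, in which 0 of all tested genes were called. Bnip3l, also known as NIX, clears mitochondria from maturing red cells and had 2702, 2313, 2233 and 2462 normalised counts in mECDglut1-labelled libraries, against 1497, 2032 and 1973 in mECwt libraries. The groups did not overlap, at 0.41 on the log2 scale (SE 0.14, interval 0.12 to 0.71, adjusted p = 0.0649). Of 8 erythroid markers 7 were tested and all 7 were called higher (100%, against 5.98% of tested genes), 3 of them without overlap between the groups. Their median exonic length was 812 bases. Protein-coding genes under 1000 bases averaging 100 or more had a median log2 fold change of 0.63. Their summed normalised counts were 4552 to 20442 in mECDglut1-labelled and 1793 to 5550 in mECwt libraries. The globin gene Hba-a2 was highest in mECDglut1-labelled library 3 (8037). The part of red cells in the Bnip3l difference was not tested. The receptor covariate left Bnip3l at -0.020 on the log2 scale.

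Ndrg1 and Adm, the other members, gave small differences. Ndrg1, a stress-responsive gene that human Schwann cells need to keep myelin, had 9054, 8819, 8478 and 9293 normalised counts in mECDglut1-labelled libraries, against 6427, 6844 and 8166 in mECwt libraries. The groups did not overlap, and mECwt library 3 came near the mECDglut1-labelled range. The log2 fold change was 0.33 (SE 0.12, 95% interval 0.06 to 0.59, adjusted p = 0.0885). Of 7 Schwann cell markers 5 were called higher (71.4%, against 5.98% of tested genes) and 0 lower. Their summed normalised counts were 27494 to 37094 in mECDglut1-labelled and 15628 to 20188 in mECwt libraries. The part of Schwann cells in the Ndrg1 difference was not tested. Adm encodes adrenomedullin, a vasodilator peptide that endothelium releases. It had 239, 199, 201 and 220.3 normalised counts in mECDglut1-labelled libraries, against 193, 193 and 174 in mECwt libraries. The groups were apart by a few counts, and Adm differed by 0.20 on the log2 scale (SE 0.19, interval -0.20 to 0.60, adjusted p = 0.479), and the sign turned with equal totals (-0.027) and with the length trend removed (-0.21).

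**Figure D2:**
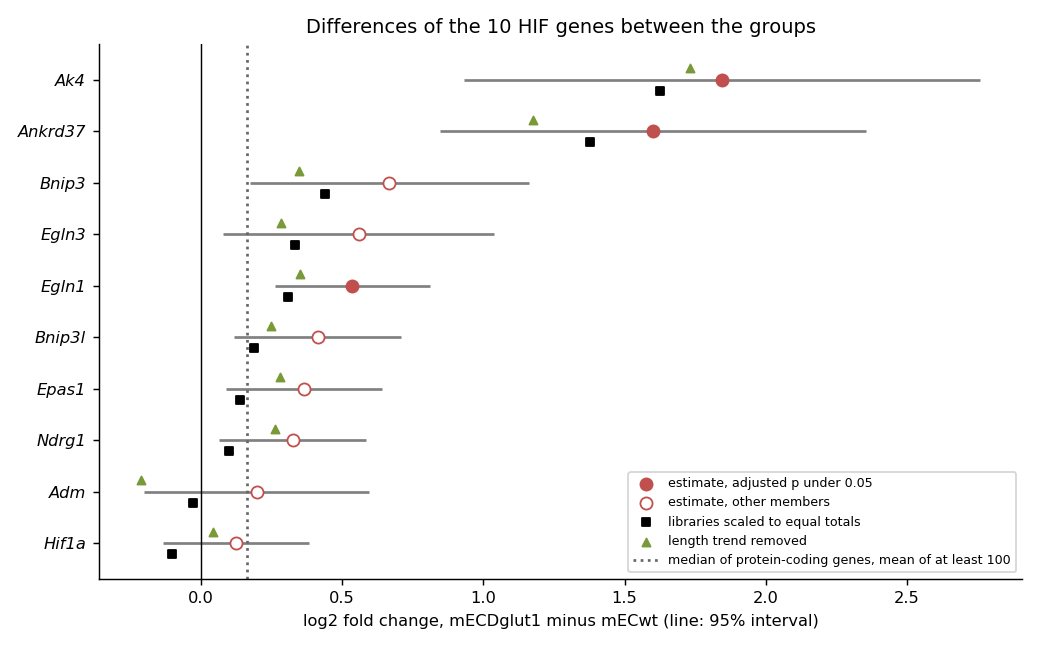
Log2 fold changes of the 10 HIF genes (horizontal axis, mECDglut1-labelled minus mECwt) with 95% intervals as lines, called members filled, values with equal totals as squares and values with the length trend removed as triangles. Ak4 (1.85) and Ankrd37 (1.60) stand apart from the other 8, which lie between 0.12 and 0.67, and the dotted line marks the median of 0.16 over the protein-coding set. Hif1a (-0.10) and Adm (-0.027) lie below 0 with equal totals, and Adm (-0.21) also with the length trend removed.

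Levels between genes were compared per kilobase of exon. In mECDglut1-labelled libraries the order was Epas1 (8999 normalised counts per kilobase), Ndrg1 (1351), Hif1a (652), Egln1 (648), Bnip3l (629), Bnip3 (247), Adm (133), Ankrd37 (112), Egln3 (66.7) and Ak4 (18.1). In mECwt libraries it was Epas1 (6996), Ndrg1 (1083), Hif1a (600.5), Bnip3l (475), Egln1 (448), Bnip3 (155), Adm (115), Egln3 (45.5), Ankrd37 (39.2) and Ak4 (4.80). Epas1 ranked 39 of the 16530 tested genes with a length, and Ak4 ranked 12259. Hif1a, Egln1 and Bnip3l lay close in level in mECDglut1-labelled libraries, less so in mECwt libraries, where Hif1a was ahead. Ratios within a library do not depend on a scaling by 1 factor per library. Epas1 exceeded Hif1a by 13.7, 13.5, 12.8 and 12.3 times in normalised counts in mECDglut1-labelled libraries 1 to 4, against 11.4, 11.8 and 10.1 times in mECwt libraries 1 to 3, without overlap. The log2 ratio of Egln1 to Epas1 averaged -4.43 ± 0.0728 in mECDglut1-labelled and -4.61 ± 0.0676 in mECwt libraries (SD, n = 4 and 3), also without overlap, though by a gap of only 0.0093 on the log2 scale. The ratios of Egln3 to Egln1 and of Bnip3l to Bnip3 overlapped between the groups. These ratios are given as a description with no test.

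**Figure D3:**
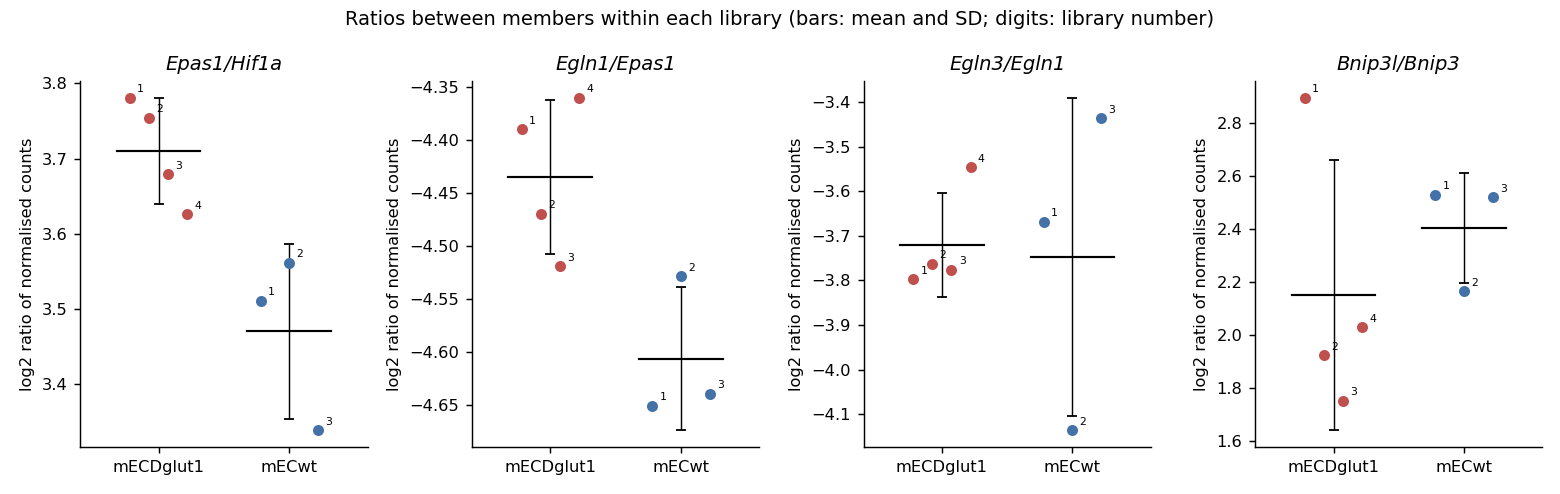
Log2 ratios of normalised counts between pairs of HIF genes within each library (vertical axes, not starting at 0), mECDglut1-labelled libraries left in red and mECwt libraries right in blue, with mean and SD as black bars. The Epas1 to Hif1a ratio (means 3.71 in mECDglut1-labelled and 3.47 in mECwt libraries) and the Egln1 to Epas1 ratio (-4.43 in mECDglut1-labelled and -4.61 in mECwt libraries) do not overlap between the groups, whereas the other 2 do.

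Exonic length moved with the group difference in the protein-coding set used above. There, the 124 genes with fewer than 1000 exonic bases had a median log2 fold change of 0.63, of which 92.7% were above 0. The median was 0.47 for 721 genes of 1000 to 2000 bases, 0.28 for 2621 of 2000 to 4000, 0.12 for 3974 of 4000 to 8000 and -0.00 for 2118 longer ones. Ankrd37 has 1539 exonic bases and Adm 1619, where the trend stood at 0.42 and 0.41 on the log2 scale. With the trend removed, Ankrd37 kept a log2 difference of 1.18, whereas that of Adm was -0.21. Ak4, with 4646 exonic bases, kept 1.73 of its 1.85, and Egln1, with 3594, kept 0.35 of its 0.54. The values of Bnip3 (0.35), Egln3 (0.28), Epas1 (0.28), Ndrg1 (0.26), Bnip3l (0.25) and Hif1a (0.04) were smaller than before in every case. No test goes with these values.

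**Figure D4:**
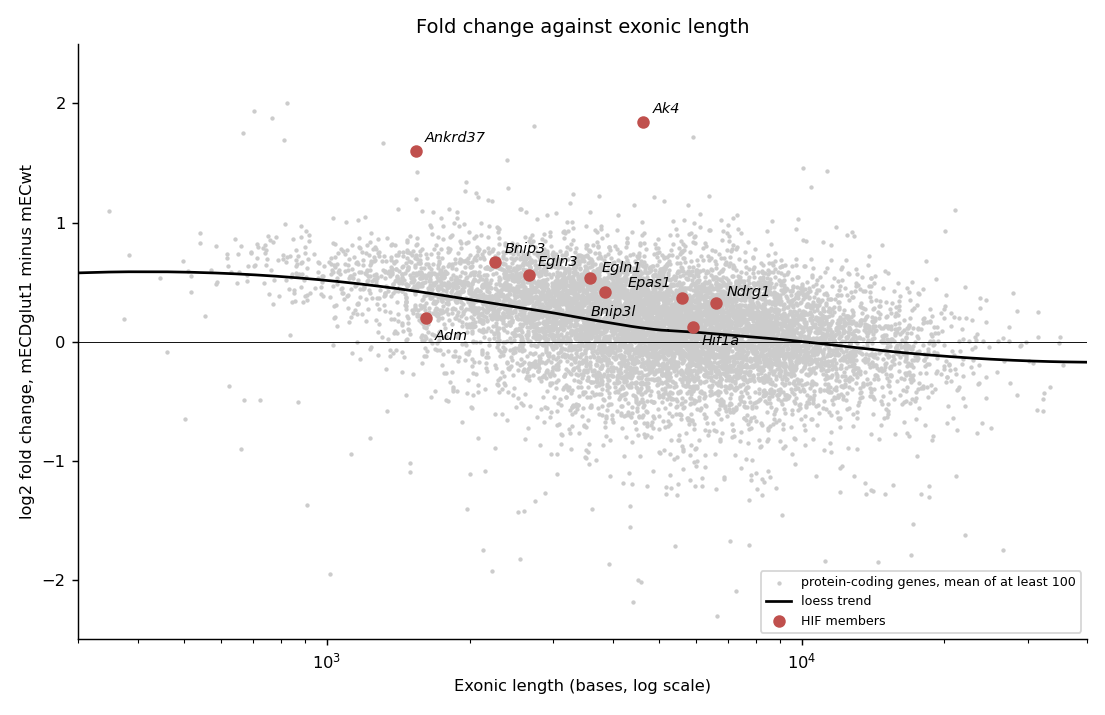
Log2 fold change (vertical axis, mECDglut1-labelled minus mECwt) against exonic length in bases (horizontal axis, log scale) for the 9558 genes of the protein-coding set (grey, 12 outside the axes not drawn), with the loess trend as a line and the 10 HIF genes in red. Ak4, whose mean is under 100, and Ankrd37 lie far above the trend, Adm lies below it and the other 7 lie above it by 0.04 to 0.35.

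The list of other genes that build or restrain HIF held 20 regulators, of which 19 were tested. Of these 2 rose, 0 fell and 17 were not called, with a median log2 fold change of 0.19. The share that rose was 10.5%, against 5.98% of tested genes and 9.47% of the protein-coding set, whose median was 0.16. Elob, a subunit of the VHL ubiquitin ligase that also serves other complexes, had 644, 597, 609 and 692 normalised counts in mECDglut1-labelled libraries, against 363, 427 and 461 in mECwt libraries (log2 fold change 0.61, SE 0.15, adjusted p = 0.026). Rack1, a ribosomal scaffold protein that can also bring HIF-1 alpha to a ubiquitin ligase, had 3929 to 5205 normalised counts in mECDglut1-labelled libraries and 2518 to 3529 in mECwt libraries (log2 fold change 0.62, SE 0.14, adjusted p = 0.0223). With equal totals limma called 0 regulators, with 3 at an unadjusted p under 0.05. It also called 0 without mECDglut1 library 4 (2 unadjusted), mECwt library 1 (2) or mECwt library 2 (4), and without mECDglut1 library 1 it called Rack1 alone. The receptor covariate (0 unadjusted) and the fit without the mean-variance trend (3) gave 0 as well. Over all genes limma called 0 with the receptor covariate, 17 without the trend and 43 without mECwt library 1. It called 652 without mECDglut1 library 4, 1058 without mECwt library 2 and, with equal totals, 226 higher. At the 1398 exonic bases of Elob the length trend stood at 0.45, and 0.16 was left with it removed. The partner Arnt was at 1375 ± 337 in mECDglut1-labelled and 1139 ± 136 in mECwt libraries (SD, n = 4 and 3, log2 fold change 0.25, SE 0.17, adjusted p = 0.334). Vhl (log2 fold change 0.19, SE 0.20), the third sensor gene Egln2 (0.05, SE 0.13) and Hif1an (0.01, SE 0.17), which encodes the asparagine hydroxylase that silences HIF alpha subunits, were not called either. Arnt, Vhl, Egln2 and Hif1an were chosen for their role after their values were seen.

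Textbook HIF targets outside the 10 members moved both ways. Of 53 listed 51 were tested, 9 rose, 4 fell and 38 were not called, with a median log2 fold change of 0.30. The shares were 17.6% higher and 7.84% lower, against 5.98% and 5.53% of tested genes and 9.47% and 2.84% of the protein-coding set. The median of that set was 0.16. Vldlr, a lipoprotein receptor that imports lipid, had 274, 301, 463 and 474 normalised counts in mECDglut1-labelled libraries, against 96.9, 195 and 124 in mECwt libraries (log2 fold change 1.46, SE 0.27, adjusted p = 0.0107). Neither its mECDglut1-labelled nor its mECwt libraries reached into the range of the other group. The chemokine receptor gene Cxcr4 was at 303 ± 62.2 in mECDglut1-labelled and 144 ± 58.8 in mECwt libraries (SD, n = 4 and 3, log2 fold change 1.11, SE 0.26). Higd1a, which encodes a small protein of the mitochondrial inner membrane, was at 218 ± 76.4 in mECDglut1-labelled and 98.1 ± 9.17 in mECwt libraries (SD, n = 4 and 3, log2 fold change 1.08, SE 0.28). The glycolytic enzyme genes with the smallest p were Pgk1 (0.69, SE 0.16), Gapdh (0.58, SE 0.13) and Aldoa (0.58, SE 0.14) on the log2 scale. With the length trend removed, the difference was 0.37 for Pgk1 and 0.73 for Cxcr4. The targets that rose had a median of 3040 exonic bases and those that fell a median of 5445. The remaining 3 that rose, P4ha1, Pgam1 and Fam162a, are named after their values were seen, and Fam162a overlapped between the groups. With equal totals 3 targets were called higher, Pgk1, Cxcr4 and Vldlr, and 6 lower, and the targets' median log2 fold change was 0.08. The same 3 were called higher without mECDglut1 library 1. Fam162a and Vldlr were called higher without mECDglut1 library 4, and without mECwt library 1 limma called 0 targets in either direction, with 19 at an unadjusted p under 0.05. It likewise called 0 in either direction with the receptor covariate (6 unadjusted) and without the mean-variance trend (17). Over all genes these fits called 43 without mECwt library 1, 0 with the receptor covariate and 17 without the trend.

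The 4 targets that fell were separated between the groups in every library. Kdm3a, a histone demethylase induced in low oxygen, had 864, 879, 815 and 671 normalised counts in mECDglut1-labelled libraries, against 1609, 1439 and 1395 in mECwt libraries (log2 fold change -0.88, SE 0.14, adjusted p = 0.00693). Bhlhe40, a transcriptional repressor, was lower by -0.58 on the log2 scale (SE 0.13, adjusted p = 0.019) and Tfrc, the transferrin receptor, by -1.15 (SE 0.26, adjusted p = 0.0207). Their direction held in all 19 alternatives, though not their calls. Vegfa, the main vascular growth factor under HIF, had 506, 390.3, 419 and 426 normalised counts in mECDglut1-labelled libraries, against 702, 559 and 441 in mECwt libraries, and was not called (log2 fold change -0.36, SE 0.18, adjusted p = 0.176). Car9, a carbonic anhydrase often used as a marker of HIF activity, was listed at 0 in mECDglut1-labelled libraries 1 and 4, at 2.28 in library 2 and at 35.1 in library 3, against 18.1, 24.2 and 22.7 in mECwt libraries. Car9 was not called, and of the alternatives only leaving out mECDglut1 library 3 called it lower. Vegfa and Car9 were chosen after their values were seen.

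**Figure D5:**
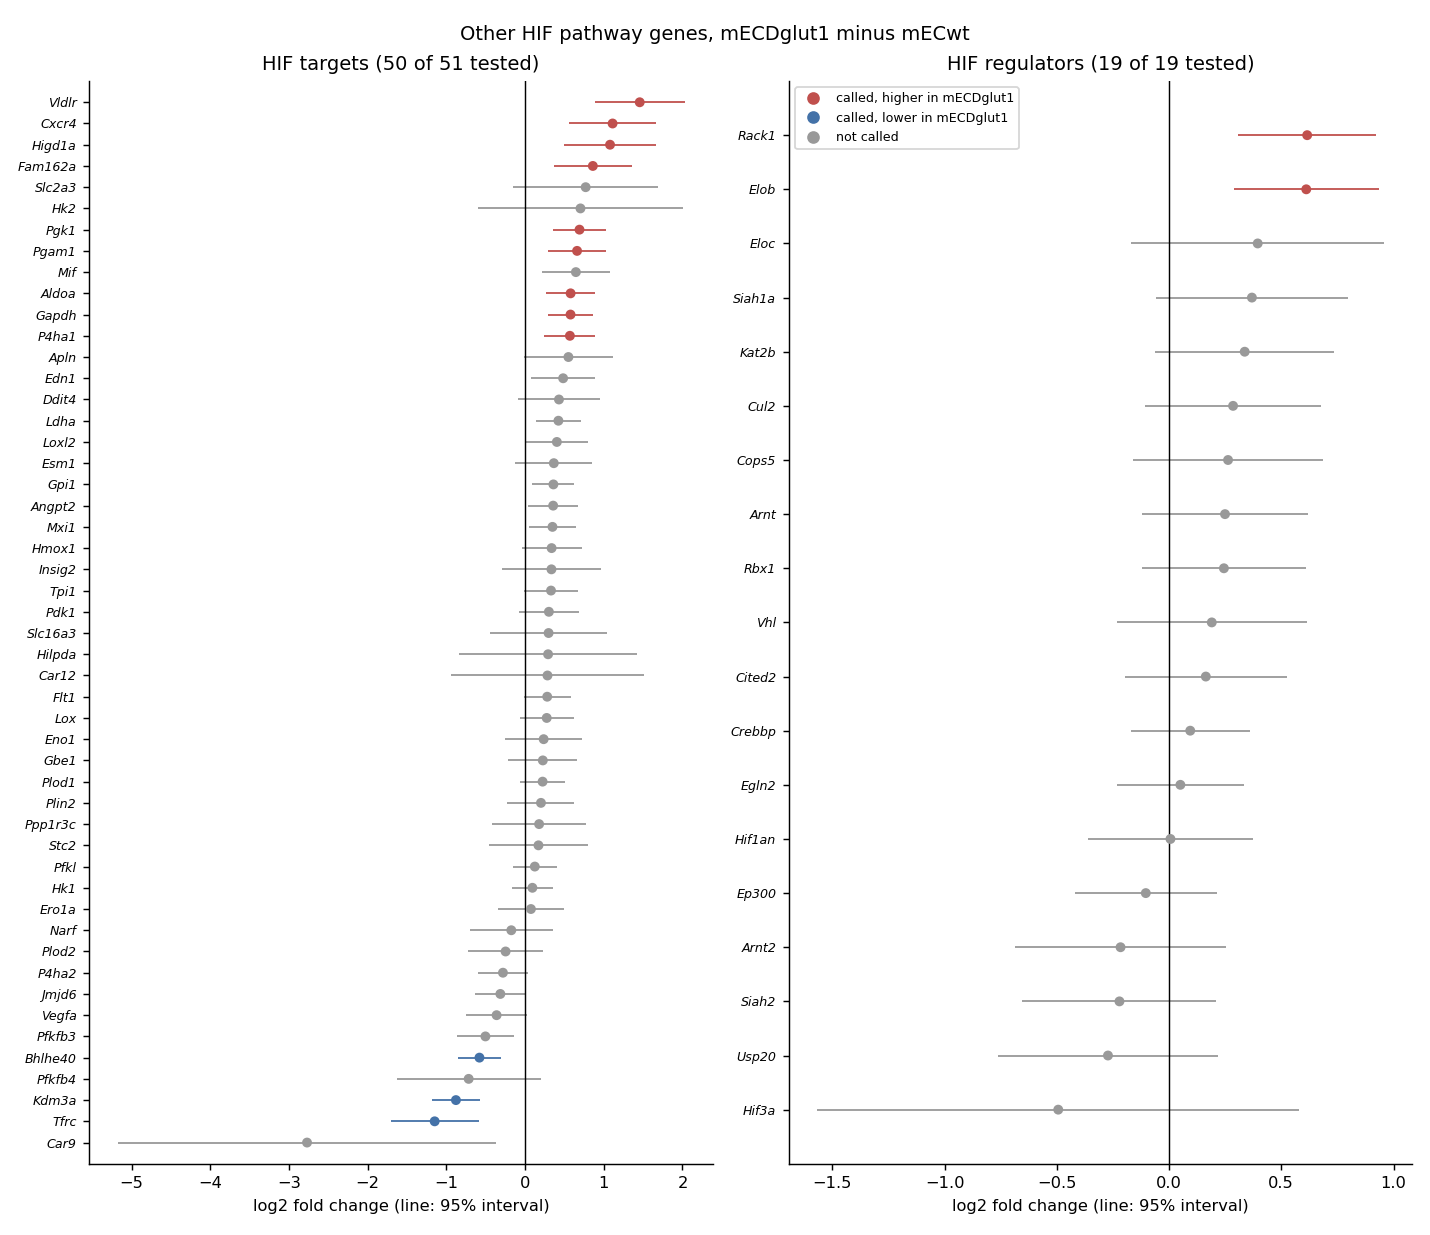
Log2 fold changes (horizontal axes, mECDglut1-labelled minus mECwt) with 95% intervals of 50 of the 51 tested HIF targets (left) and 19 tested HIF regulators (right), sorted by value, with called genes in red where higher and in blue where lower. Targets spread to both sides of 0, with 9 called higher and 3 of those called lower drawn, whereas 2 regulators were called.

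Endothelial markers had the largest sums of the marker lists, at 159995 to 187450 normalised counts in mECDglut1-labelled and 128339 to 166152 in mECwt libraries. All 12 were tested, 2 were higher (Emcn and Erg), 1 lower (Egfl7) and 9 not called. These shares of 16.7% and 8.33% compare with 5.98% and 5.53% of tested genes and 9.47% and 2.84% of the protein-coding set. The most abundant, Vwf, was at 37267 ± 9035 in mECDglut1-labelled and 33206 ± 7581 in mECwt libraries (SD, n = 4 and 3). Of 10 smooth muscle and pericyte markers 5 were higher (50%), Acta2, Myh11, Cnn1, Tagln and Des. The other 5, Rgs5, Pdgfrb, Cspg4, Kcnj8 and Abcc9, were not called, and 3 of the 10 estimates were below 0. The sums of this list were 64110 to 71981 in mECDglut1-labelled and 38406 to 50849 in mECwt libraries. Of 7 satellite cell markers 3 were higher (42.9%), Pax7, Myod1 and Des, the last also in the smooth muscle and pericyte list. The satellite cell sums were 4328 to 4731 in mECDglut1-labelled and 2938 to 3608 in mECwt libraries. Of 8 markers of fibroadipogenic progenitors 2 were higher (25%), Col1a1 and Col3a1, 6 were not called, and 2 of the 8 estimates were below 0. The sums were 9019 to 12079 in mECDglut1-labelled and 3785 to 7012 in mECwt libraries. The sums of these last 3 lists were therefore separated between the groups, whereas the endothelial sums overlapped. Des counts toward both the satellite cell and the smooth muscle and pericyte sums. The most abundant markers were Myh11 (log2 fold change 0.68, SE 0.15), Vcam1 (0.36, SE 0.13, not called) and Col3a1 (1.03, SE 0.20). Of 7 tested macrophage markers 1 was called higher (14.3%), Lyz2 (1.67, SE 0.28). Of 3 tested adipocyte markers 1 was called higher (33.3%), Cfd, with Plin4 the most abundant (0.13, SE 0.19). The median log2 fold change of the macrophage list was -0.16, with 4 of the 7 estimates below 0. In limma 0 of 9 muscle fibre markers were called (0 at an unadjusted p under 0.05), the most abundant being Myh4 (0.60, SE 0.35). No marker of any list was at 0 in all libraries, and markers other than the most abundant are named after their values were seen. The part of these cell types in the members' differences was not tested.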

How the data were processed

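The authors deposited normalised counts per gene, a scaled signal, in 1 table per library; per the submitters' processing notes, kallisto, featureCounts, DESeq, DESeq2 and the build GRCm39 were used, with no role given. Libraries were made from 10 ng of RNA, per the labels' protocols. The values were not whole (24.6% to 49.6% of low values lay near a whole multiple of the smallest step), so whole reads were not recovered and count tests were not run. That step gave the estimated reads, which limit the precision of low values.

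Values were tested as log2(value + 1), on which scale fold changes of low genes are understated, with limma 3.58.1 in R 4.3.3 (trend, Benjamini-Hochberg over 16931 genes with a mean of at least 10, threshold 0.05). The procedure was tested on simulated data with independent noise for each gene. Those data held no differences in library make-up, so the test does not cover them. Changes are mECDglut1 minus mECwt. The members and gene lists were chosen with earlier results of these data known. Named are all members, Slc2a1, up to 6 called genes per direction of the regulator and target lists, and the most abundant marker of each cell list; exceptions are stated. Exonic lengths came by symbol from GENCODE M21, which matched 96.4% of symbols.

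Alternatives were other pseudocounts, filters, scalings and variance models, a replicate block, a receptor covariate, removal of a loess length trend and leaving out each library. The values of every pair of libraries differed. Values of 2 genes of the lists are not reported here. GRCm38.p6 coordinates are used for promoter windows only.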

Additional observations from a re-analysis of the deposited data

Results flagged for a closer look

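Among the 4 mECDglut1-labelled libraries, the Hif1a value of library 4 (4078 normalised counts) stood apart from the other 3, which lay between 3749 and 3797. Plin4, an adipocyte marker, stood apart in library 1 at 329 normalised counts, with the other 3 between 396 and 409. Each gap to the nearest library exceeded the 95% limit of Dixon's test for 4 values. Of 32 genes checked 2 were so marked, and chance marks about 1 in 20 groups.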

How the results depend on the processing

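The count of 1949 called genes was 1102 with quantile normalization (447 higher), 17 without a mean-variance trend (0 higher, 17 lower) and 0 with the receptor covariate (0 higher, 0 lower; 742 at an unadjusted p under 0.05). Equal totals (all-gene median shifted by -0.22) called 226 higher and 1621 lower, against 1013 and 936, and a mean of at least 50 called 563 lower. Leaving out 1 library gave 43 to 1975 called genes (19 to 995 higher, 24 to 1117 lower), with 43 without mECwt library 1, 1058 without mECwt library 2, 608 without mECDglut1 library 1 and 652 without mECDglut1 library 4. Of the members 3 were called, but 0 without the trend (7 at an unadjusted p under 0.05) and 0 with the receptor covariate (1), and 0 to 3 on leaving out 1 library. Of the regulators 2 were called, but 0 with equal totals, 1 with quantile normalization, 0 without the trend (3 unadjusted), 0 with the receptor covariate (0 unadjusted) and 0 to 2 on leaving out 1 library. Of the targets 9 were higher and 4 lower. Equal totals called 3 higher and 6 lower. Both the fit without the trend (17 targets unadjusted) and the receptor covariate (6) called 0 higher and 0 lower. Leaving out 1 library gave 0 to 10 higher and 0 to 5 lower, with 0 of either without mECwt library 1 (19 unadjusted). The members' median log2 fold change of 0.47 was 0.25 with equal totals, 0.25 with the receptor covariate and 0.28 with the length trend removed, and 0.38 to 0.51 on leaving out 1 library. Signs turned for Hif1a with equal totals (-0.10), quantile normalization (-0.018) and the receptor covariate (-0.15), for Adm with equal totals (-0.027) and with the length trend removed (-0.21), and for Bnip3l with the receptor covariate (-0.020). They also turned for Slc2a1 without mECDglut1 library 3 (0.023) and, with the receptor covariate, for the markers Vwf (-0.24) and Myh4 (-0.88). Vwf and Plin4 turned with equal totals (-0.066 and -0.10) and quantile normalization (-0.085 and -0.0083), and Plin4 without mECwt library 2 (-0.021, against 0.31 without mECwt library 1). The cause was not tested.

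With the replicate number as a block (replicate block), 119 genes were called, 35 higher and 84 lower, with 0 members (5 at an unadjusted p under 0.05), 0 regulators (2 unadjusted), 1 target higher and 0 lower. The labels do not tie the numbers to a shared animal or batch, so the main fit did not pair the libraries by number. Deviations of same-numbered libraries from their group means correlated at -0.0806, -0.048 and -0.125 across genes. Those of differently numbered libraries correlated at -0.116 to 0.195. Such deviations also carry the make-up of each library, so they cannot exclude a shared batch. mECDglut1 library 4 has no partner. Depth limits low values such as those of Car9 most.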
